A study of Mus musculus with 3 samples.

Results

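Oxidative phosphorylation genes were described across the cell classes and the 3 ages of the mouse retina. Members were the genes whose symbols begin with Nduf, Uqcr, Cox4 to Cox8 or Atp5, the genes Sdha, Sdhb, Sdhc and Sdhd, and the mitochondrial genes mt-Nd, mt-Co, mt-Cytb and mt-Atp. They numbered 107 of the 32285 genes measured, 94 encoded in the nucleus and 13 in mitochondrial DNA. The retinas came from C57BL/6JRj mice with no further treatment, and their ages were 3, 12 and 23 months, called young, adult and old. At each age 4 retinas from 2 animals were pooled, cells carrying the endothelial surface protein CD31 were enriched with magnetic beads, and 1 droplet library was sequenced from the 3′ ends of poly(A) RNA. Each age thus rested on 1 library. No difference between ages has a replicate check, no test was run, and intervals below cover counting error only.

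The respiratory chain passes electrons from NADH and succinate to oxygen through complexes I to IV, and the proton gradient it builds drives ATP synthesis by complex V. Mitochondrial DNA encodes a few core membrane subunits of complexes I, III, IV and V, whereas the nucleus encodes every other subunit, all of complex II and the assembly factors. Photoreceptors, which pack mitochondria into their inner segments, are among the most energy-demanding cells of the body, and retinal endothelial cells are known for a strong reliance on glycolysis.

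The libraries held 2491, 3243 and 2751 barcodes with 16577026, 19977238 and 17021820 unique molecular identifiers (UMIs, each a tag of 1 captured transcript) in the young, adult and old retina. After the study's limits of 500 to 6000 genes and 1 to 20% of UMIs from mt- genes, and after removal of doublets, 1705, 1957 and 1701 cells were kept, with median UMI counts of 5964 to 6353. The adult and old libraries shared 3 barcodes and the young and adult libraries 1. Clusters were named from marker genes, and the comparison was limited to the 7 classes that reached 30 cells in all 3 libraries. These were endothelial-like (443, 432 and 409 cells in the young, adult and old library), pericyte-like (170, 131 and 103), smooth muscle-like (38, 38 and 37), Müller glia-like (181, 214 and 210), rod-like (166, 321 and 234), cone-like (70, 102 and 72) and bipolar-like (144, 140 and 120), and they are called by these cell names below. Another 786 cells carried endothelial and pericyte markers together and were left out, as were the cells of the remaining smaller or unnamed clusters. Median UMI counts differed between the classes and, in some, between libraries. By age they were 5653, 5993 and 7462 in endothelial cells, 4025.5, 3950 and 4674 in pericytes and 8082.5, 8209 and 8490 in smooth muscle. Müller glia had 9166, 9467.5 and 6782, rods 2287, 2423 and 2162.5, cones 7267.5, 6612.5 and 7330.5, and bipolar cells 6754, 7697 and 6972.5. Markers of each class were at their highest in that class, but the cone class also carried rod markers at 7029, 11641 and 7287 counts per 1000000 UMIs of the class (CPM). The smooth muscle class carried pericyte markers at 9301, 8702 and 4715 CPM.

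A member was taken as measured in a class at 10 or more UMIs over the 3 libraries. By this minimum 103 members were measured in endothelial cells, 103 in pericytes, 100 in smooth muscle, 103 in Müller glia, 102 in rods, 101 in cones and 103 in bipolar cells. The same 4 members were under the minimum in each of these 7 classes: Cox6a2 and Cox8b, the heart and skeletal muscle isoforms of their subunits, and Cox7b2 and Cox8c. The members just inside and outside the minimum in bipolar cells were Ndufa4l2 with 10 UMIs and Cox8b with 8. Over all kept cells, with those outside the 7 classes, Cox8b had 310 UMIs and Cox6a2 29. All 13 mitochondrial members were measured in every class. UMIs were captured at 3′ ends, so a level is compared between classes or ages for 1 gene or 1 fixed sum of genes. Isoform shares and ratios of 1 sum to another do set genes side by side. Their absolute size depends on how well each gene is captured, so they too are compared between classes or ages.

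Endothelial cells, the target of the enrichment, had the lowest summed level of both sets in every library. The 94 nuclear members made up 1.82, 1.96 and 1.93% of endothelial UMIs in the 3 libraries by age (mean 1.90% ± 0.07 SD over the 3 libraries). The 13 mitochondrial members made up 5.64, 6.18 and 5.69% (5.83% ± 0.30). The spread over libraries holds age and preparation together.

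The mural and glial classes came next. In pericytes the nuclear members took 2.28% ± 0.10 of UMIs and the mitochondrial members 6.91% ± 0.24, and in smooth muscle they took 2.78% ± 0.09 and 8.64% ± 0.84. Müller glia, the radial glia that span the retina, had a nuclear level of 2.20% ± 0.13, which overlapped that of pericytes, and a mitochondrial level of 8.31% ± 0.65. The 2 Müller glia clusters differed in the nuclear members. Cluster 3, with 148, 180 and 162 cells, had 2.25, 2.50 and 2.42%, whereas cluster 11, with 33, 34 and 48 cells and median UMI counts of 2665 to 4481.5 against 8860 to 10444, had 0.342, 0.549 and 0.387%. Without cluster 11 the mean nuclear level of Müller glia was 2.39%.

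The retinal neurons had the highest nuclear levels, 3.60% ± 0.32 in rods, 3.77% ± 0.35 in cones and 3.42% ± 0.30 in bipolar cells, and these 3 could not be told apart over libraries. All 9 neuronal class values lay above all 3 values of every other class. One bipolar cluster did not follow: cluster 22, with 13, 13 and 10 cells, had 1.12, 1.42 and 1.31%, below endothelial cells. The mitochondrial levels of the neurons did differ. Bipolar cells had 12.9, 14.03 and 12.2% of UMIs from the 13 genes, cones 12.1, 11.5 and 11.01%, and rods 7.86, 8.29 and 8.15%, in the range of smooth muscle and Müller glia. The bipolar level was carried by cluster 7 (15.5, 16.9 and 14.4%) and cluster 22 (12.9, 13.6 and 11.5%), while clusters 14 and 15 had 7.91 to 9.06% and 8.69 to 10.6%, near the rods.

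**Figure D1:**
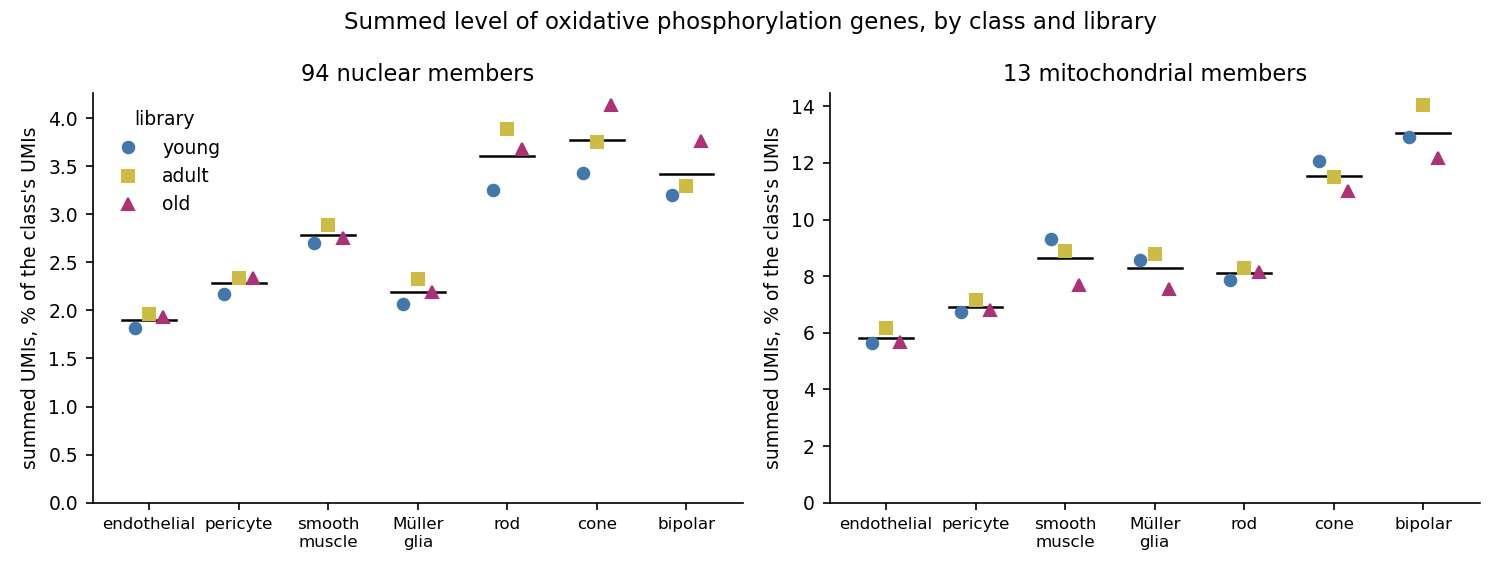
Each point is the summed UMIs of the 94 nuclear members (left) or the 13 mitochondrial members (right) in 1 library, as a percentage of all UMIs of the class; the bar is the mean of the 3 libraries. The nuclear levels of rods, cones and bipolar cells lie between 3.20 and 4.14%, above every other class, while the mitochondrial level of rods lies with those of smooth muscle and Müller glia.

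The mitochondrial members are also what the limit of 20% mt- UMIs acts on, and it acted unequally on the classes. Barcodes were given a class from their own markers before the limit. Above it lay 155 of 384 cone barcodes (40.4%, exact 95% interval 35.4 to 45.5) and 112 of 576 bipolar barcodes (19.4%). For Müller glia the share was 10.8%, for smooth muscle 7.55%, for rods 6.07%, for pericytes 1.59% and for endothelial cells 1.45%. The cone and bipolar levels above are therefore levels of the cells that stayed under the limit. The share above the limit differed by age as well. In smooth muscle it was 3.45, 5.41 and 12.5% in the young, adult and old library, from 1, 2 and 5 barcodes. In Müller glia it was 7.44, 11.9 and 12.5%. The old library also had the highest share in endothelial cells and cones. In pericytes and rods the young library had it, and in bipolar cells the adult one. The lower limit of 1% also acted unequally, and by age: it took 14.7, 4.55 and 5.75% of rod barcodes in the young, adult and old retina, 8.37, 10.1 and 12.1% of Müller glia barcodes, and 0, 0 and 9.24% of pericyte barcodes. In the cone barcodes above the limit, the nuclear members made up 0.501, 0.637 and 1.08% of the UMIs outside the mt- genes, against 3.94, 4.24 and 4.68% in those within it, and median UMI counts were 2003 to 2380.5 against 6554 to 7346.

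The classes were then compared with endothelial cells within each library, by complex and genome of origin. The nuclear members were higher in rods by 0.92 ± 0.08 on the log2 scale, or 1.89-fold, and higher in cones by 0.98 ± 0.10 and in bipolar cells by 0.84 ± 0.11. Smooth muscle was higher by 0.55 ± 0.03, pericytes by 0.26 ± 0.01 and Müller glia by 0.20 ± 0.04 (SD over 3 libraries, each class higher in 3 of 3). The mitochondrial members were higher in bipolar cells by 1.16 ± 0.05 and in cones by 0.98 ± 0.10. Both sizes moved with the mt- limit, from 0.418 at 10% to 1.32 with no limit in bipolar cells and from 0.507 to 1.49 in cones. In smooth muscle, Müller glia, rods and pericytes the corresponding log2 differences were 0.56 ± 0.15, 0.51 ± 0.10, 0.47 ± 0.05 and 0.24 ± 0.02. Across the 7 classes the mean nuclear and mitochondrial levels had a Pearson correlation of 0.754 and a Spearman correlation of 0.643, given as a description over 7 points that share libraries.

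The complexes did not differ from endothelial cells alike. In rods, nuclear complex IV was 1.06 ± 0.13 higher on the log2 scale but mitochondrial complex IV, its catalytic core, only 0.21 ± 0.06, and complex II was 0.30 ± 0.10 higher. Müller glia showed a split within the mitochondrial set. Their mitochondrial complex I was 1.16 ± 0.05 higher than in endothelial cells, and their mitochondrial complex IV differed by 0.19, 0.09 and -0.08 in the young, adult and old library.

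The same split is seen in the ratio of mitochondrial complex I to complex IV UMIs. It was 0.935, 0.917 and 0.936 in Müller glia of the young, adult and old library, against 0.457, 0.447 and 0.405 in endothelial cells and 0.414, 0.416 and 0.378 in bipolar cells. Rods were in between at 0.661, 0.661 and 0.571. No value of any other class reached those of Müller glia. Both Müller glia clusters had it, with 0.911 to 0.935 in cluster 3 and 0.935 to 1.03 in cluster 11.

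In cones the assembly factors of complex I stood out, at 1.72 ± 0.12 above endothelial cells against 0.57 ± 0.06 in rods and 0.24 ± 0.15 in bipolar cells. Of their 1427 UMIs in cones 678 came from Ndufaf5, and the other 7 were 0.83 ± 0.08 above endothelial cells. In pericytes, nuclear complex IV was 0.56 ± 0.03 higher and complex II 0.50 ± 0.21, with complex II the higher of the 2 in the old library (0.73 against 0.58), while complexes I, III and V differed by 0.06 to 0.15. The complex IV value was carried by Ndufa4l2 and Cox4i2: without them the other 18 members differed by 0.01 ± 0.02. The genes behind these sums are given below.

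**Figure D2:**
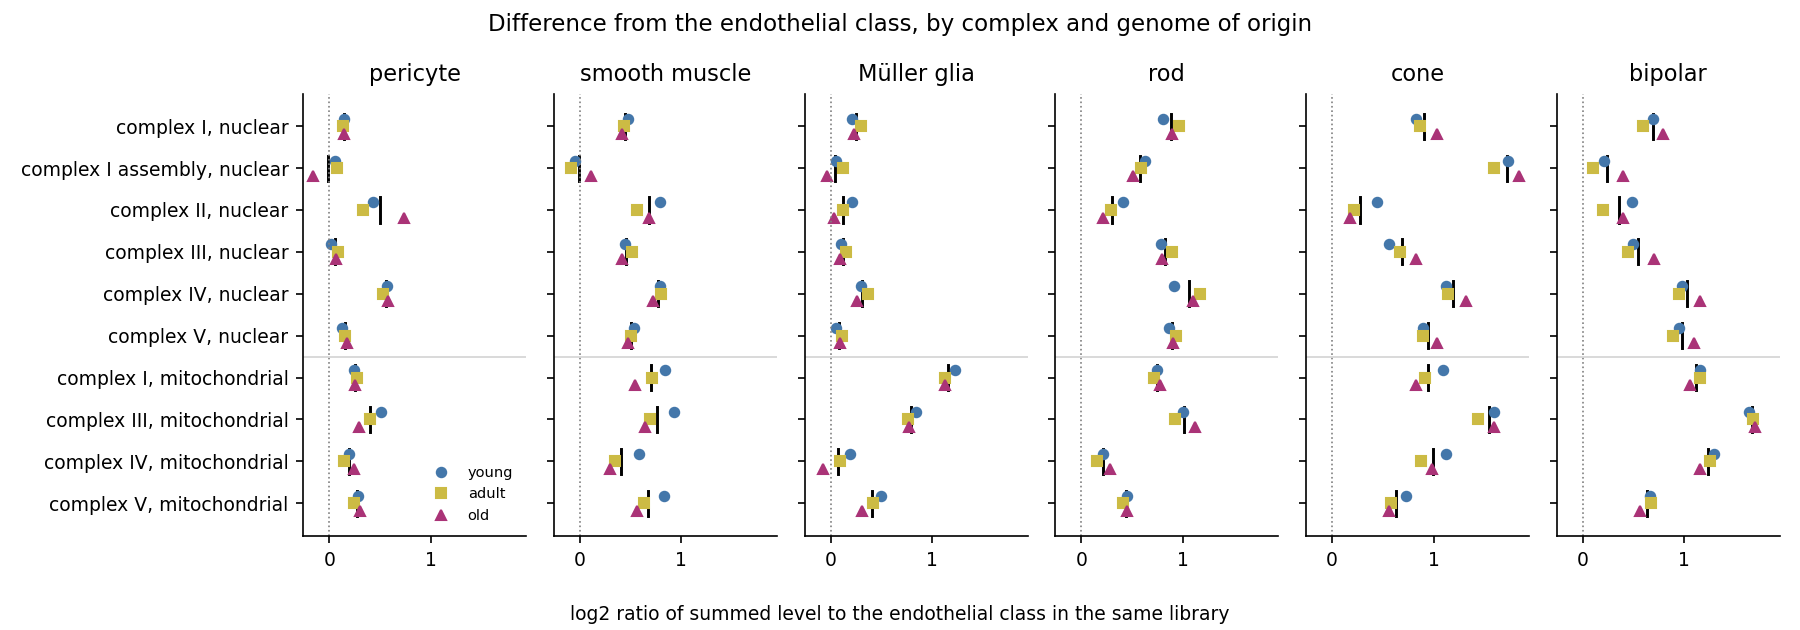
Log2 ratio of the summed level of each complex to the endothelial level in the same library, for 6 classes; points are libraries, black bars their means, and the dotted line marks equality. Mitochondrial complex I lies near 1.16 in Müller glia while mitochondrial complex IV lies near 0, and complex I assembly factors lie near 1.72 in cones.

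Counted gene by gene, most nuclear members set neurons apart from endothelial cells. A member was counted at 100 or more UMIs over both classes and called higher or lower when its 3 library values did not overlap the 3 endothelial values. In rods 73 of 89 nuclear members were higher and 5 lower, while of all 9102 genes counted 28.7% were higher and 44% lower. In cones it was 76 higher and 8 lower of 89, beside 33.4 and 40.1% of all genes. In bipolar cells it was 67 and 12 of 89, beside 37.5 and 38.8%. The median log2 difference of these members was 0.79 in rods, 0.84 in cones and 0.72 in bipolar cells, beside -0.23, -0.08 and 0.00 over all genes.

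In the other classes fewer nuclear members were higher. Smooth muscle had 58 higher and 7 lower of 87 (background 18.8 and 36%), pericytes 40 and 15 of 88 (26.2 and 27.9%), and Müller glia 40 and 13 of 90 (35 and 37.6%). Their median log2 differences were 0.46, 0.19 and 0.17, beside -0.20, 0.01 and -0.05 over all genes.

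Among the 13 mitochondrial members, 12 were higher in cones and in bipolar cells, 11 in rods and in smooth muscle, 10 in Müller glia and 7 in pericytes, and none was lower in any of the 6 classes. Of all genes, 33.4% were higher in cones, 37.5% in bipolar cells, 28.7% in rods, 18.8% in smooth muscle, 35% in Müller glia and 26.2% in pericytes. mt-Nd6 was the exception: its values overlapped those of endothelial cells in all 6 classes. It encodes a membrane subunit of complex I and is the only protein-coding gene on the light strand of mitochondrial DNA (mitochondrial DNA, 13552 to 14070, minus strand, GRCm38). mt-Co1, the catalytic subunit of complex IV, stood at 9444, 9968 and 8282 CPM in Müller glia and 9150, 10335 and 10255 in endothelial cells, which overlap, and at 25021, 26561 and 24821 CPM in bipolar cells. mt-Nd2, a complex I subunit, stood at 9743, 10081 and 9407 CPM in Müller glia and 3967, 4099 and 3877 in endothelial cells. Its level in Müller glia was the highest of the 7 classes in every library. mt-Cytb, the cytochrome b of complex III, was 1.67 ± 0.03 higher in bipolar cells and 1.02 ± 0.10 higher in rods on the log2 scale.

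Within complex I, Ndufa10, an accessory subunit, was among the 5 nuclear members furthest above endothelial cells in rods. It had 292, 285 and 276 CPM in rods against 66.8, 80.9 and 83.5 in endothelial cells (log2 difference 1.89 ± 0.21). The rod values lay well apart from the endothelial values in every library.

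Ndufa8, an accessory subunit on the intermembrane side, went the other way in rods, pericytes and Müller glia. It had 115, 118 and 99 CPM in rods, 115, 125 and 118 in pericytes and 107, 137 and 115 in Müller glia, against 175, 184 and 181 in endothelial cells, with log2 differences of -0.70 ± 0.14, -0.59 ± 0.03 and -0.60 ± 0.15. Ndufa7, the nuclear complex I subunit with the most endothelial UMIs, was also lower in pericytes, at 327, 379 and 336 CPM against 623, 605 and 558 (-0.78 ± 0.13). The other 2 most counted complex I genes, Ndufb1-ps and Ndufa2, were 1.25 ± 0.17 and 0.88 ± 0.03 higher in rods on the log2 scale. Ndufb1-ps carries a pseudogene suffix in its symbol.

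Müller glia had 3 complex I accessory subunits among their 5 highest nuclear members. Ndufc1 had 430, 500 and 466 CPM against 169, 186 and 174 in endothelial cells (log2 difference 1.398 ± 0.05). Ndufc2 was 0.87 ± 0.06 higher and overlaps a processed pseudogene. Ndufa13 was 0.97 ± 0.11 higher, but it overlaps the coding gene Yjefn3 on the same strand, so its counts are uncertain. Ndufc1 was also 1.43 ± 0.11 higher in rods, whereas Ndufc2 was 0.39 ± 0.17 lower in pericytes.

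Among the assembly factors, Ndufaf5, which modifies a complex I subunit during assembly, set photoreceptors apart. It was at 401, 367 and 473 CPM in cones and at 73, 68.5 and 46.2 in rods. Endothelial cells had 5.54, 6.82 and 9.33 CPM, and bipolar cells 24.9, 21.3 and 32.8. The log2 difference from endothelial cells was 5.84 ± 0.27 in cones and 3.11 ± 0.72 in rods. In smooth muscle the gene was under the measured minimum. Ndufaf7, a methyltransferase of complex I assembly, was 0.69 ± 0.22 lower in rods. Ndufaf8 and Ndufaf3, the most counted assembly factors of endothelial cells, were at 69.8, 75.6 and 65.6 CPM and at 44.6, 49.5 and 57.9 CPM there.

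Complex II has 4 subunits, all nuclear, and they did not differ alike between classes. Sdha, the flavoprotein that oxidises succinate, had 192, 184 and 186 CPM in rods against 93.5, 105 and 108 in endothelial cells, whereas Sdhb, its iron-sulfur partner, had 66.7, 86.6 and 74.3 in rods against 101, 100 and 105. Sdha was thus higher and Sdhb lower, with log2 differences of 0.88 ± 0.14 and -0.43 ± 0.19. The membrane anchor Sdhc was higher in smooth muscle, at 185, 167 and 214 CPM against 53.2, 65.5 and 64.0 in endothelial cells (1.64 ± 0.24), while the other anchor, Sdhd, overlapped between these classes.

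For complex III, the members with the most endothelial UMIs were Uqcrb, Uqcrh and Uqcr11. Uqcrh, the hinge protein that assists cytochrome c1, had 825, 1044 and 987 CPM in rods and 386, 427 and 387 in endothelial cells (1.25 ± 0.13). Uqcrb was 0.70 ± 0.10 higher in rods and 0.57 ± 0.10 lower in Müller glia. Uqcrc2, a core protein, was at 85.5, 114 and 82.5 CPM in rods against 106, 115 and 115, and the classes overlapped.

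For complex V, the proteolipid gene Atp5mpl had 1348, 1382 and 1604 CPM in bipolar cells, 592, 621 and 630 in rods, and 142, 161 and 158 in endothelial cells. The log2 difference was 3.23 ± 0.12 in bipolar cells and 2.0 ± 0.06 in rods, and none of the values overlapped. The members with the most endothelial UMIs, Atp5j, Atp5e and Atp5h, encode coupling factor 6, the epsilon subunit and subunit d. Atp5h was 0.67 ± 0.05 higher in rods, whereas Atp5j, at 568, 596 and 628 CPM in endothelial cells and 515, 546 and 592 in rods, overlapped. Subunit c, which forms the rotating ring, is encoded by 3 genes with the same mature protein. Of their UMIs Atp5g2 took 51.8, 52.9 and 52.7% in endothelial cells and 27.5, 27.7 and 26.7% in cones. Atp5g1 itself was at 690, 682 and 796 CPM in cones against 149, 152 and 157 in endothelial cells, a log2 difference of 2.24 ± 0.09.

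Wide differences were also found in complex IV, whose regulatory subunits exist as isoforms. Ndufa4, a subunit of complex IV once assigned to complex I (chromosome 6, 11900292 to 11907497, minus strand), was at 2212, 2905 and 2652 CPM in rods, 493, 536 and 525 in endothelial cells and 36.9, 87.2 and 42 in pericytes. Its hypoxia-inducible paralogue Ndufa4l2 (chromosome 10, 127514967 to 127517154, plus strand, GRCm38) was at 1545, 1539 and 1642 CPM in pericytes and at 59.1, 56.3 and 45.0 in endothelial cells. The order of the classes was thus turned round between the paralogues. Ndufa4l2 took 97.7, 94.6 and 97.5% of the UMIs of the pair in pericytes, 71.7, 71.3 and 59.8% in smooth muscle and 10.7, 9.51 and 7.90% in endothelial cells. In rods its share was 0.09, 0.14 and 0.25%, from 1, 4 and 4 UMIs, with an exact 95% upper bound of 0.63% in the old library. Rod markers summed to 158, 441 and 134 CPM in the pericyte class, highest in the adult library, where pericyte Ndufa4 was highest as well. Their part in the pericyte level of Ndufa4 was not tested. Pericyte markers summed to 1992, 2022 and 1261 CPM in the endothelial class, beside 35221, 32847 and 34316 in pericytes. Their part in the endothelial share was not tested. That share was 4.27% without cells carrying markers of another class and 25.9% with classes from each cell's own markers, and the log2 difference between pericytes and endothelial cells was then 6.101 and 3.18.

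Subunit 4 showed another pattern. Cox4i2, the isoform known from lung and oxygen-sensing cells (chromosome 2, 152754173 to 152765037, plus strand), was at 755, 715 and 924 CPM in pericytes and, in the same range, at 728, 875 and 845 in Müller glia. Endothelial cells had 22.8, 25.5 and 21.4 CPM, for log2 differences of 5.09 ± 0.31 and 5.13 ± 0.15. These sizes depended on how endothelial cells were chosen: they ran from 3.27 to 6.41 and from 3.30 to 6.63 over the alternatives, lowest where classes came from own markers and highest without cells carrying other markers. Its share of the UMIs of Cox4i1 and Cox4i2 was 55.1, 52.8 and 61.8% in pericytes and 49.0, 51.0 and 53.2% in Müller glia, and 3.85, 3.85 and 3.42% in endothelial cells (1.52 to 11.8% over those 2 choices). Smooth muscle had 36.7, 30.6 and 24.8%, and its pericyte markers were lowest in the old library as well. In cones and bipolar cells the share was at most 1.26%. Cox4i1, the general isoform, overlaps the annotated coding gene Gm20388 on the same strand over 5986 bases, so its counts, and with them the size of these shares, are uncertain.

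Müller glia also had the highest share of Cox6b2, the testis isoform of subunit 6b (chromosome 7, 4751792 to 4753094, minus strand). Cox6b2 had 149, 156 and 144 CPM in Müller glia, 29.2, 21.1 and 41.3 in rods, and 0.923, 1.48 and 0.824 in endothelial cells, where it rested on 3, 5 and 3 UMIs. The fitted log2 difference of 6.98 ± 0.35 depends on the 0.5 added to each count. The share of the Cox6b1 and Cox6b2 UMIs was 28.1, 27.9 and 27.2% in Müller glia and at most 7.08% in any library of the other 6 classes. Müller glia markers summed to 479, 302 and 767 CPM in the rod class. The order of the libraries was the same for these markers and for rod Cox6b2, and their part in it was not tested.

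**Figure D3:**
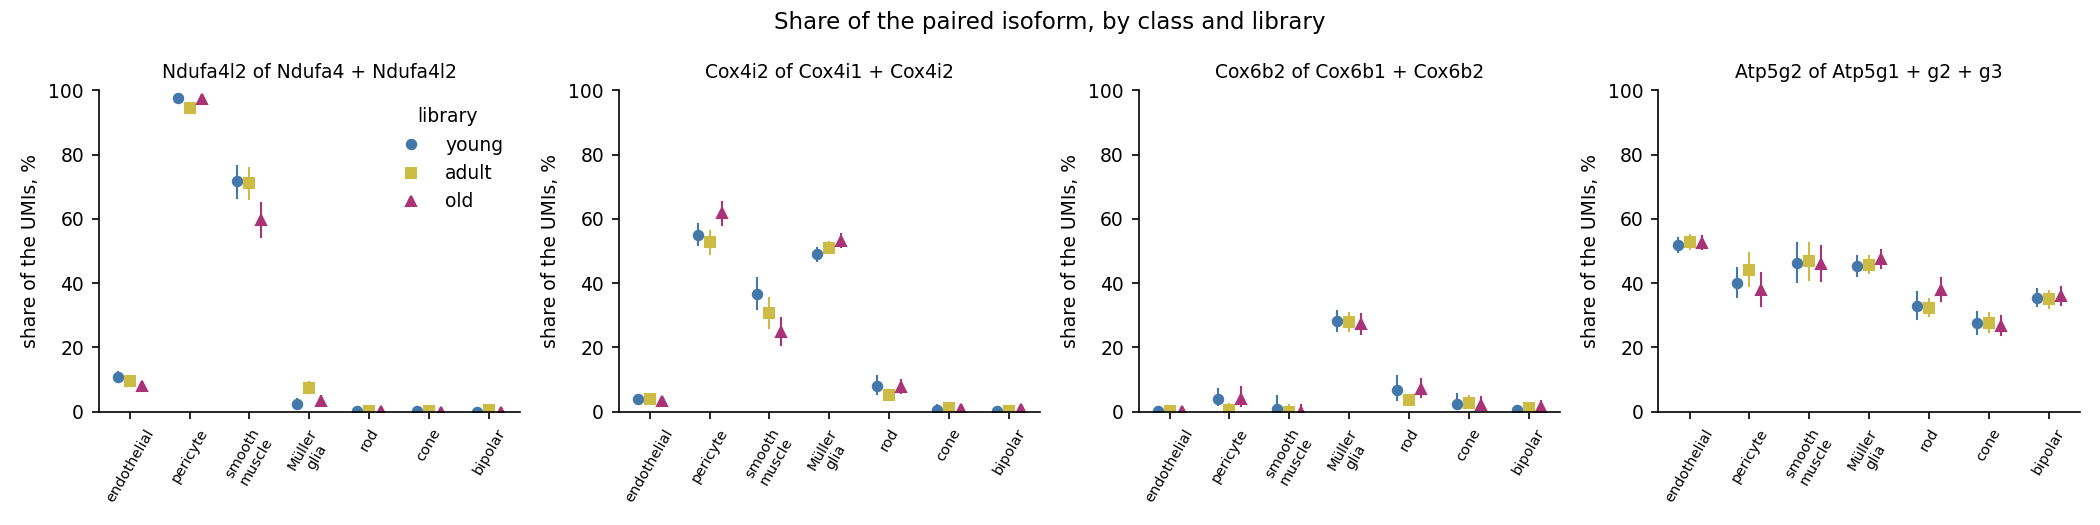
Share of the UMIs of each isoform pair (for subunit c, of 3 genes) taken by the gene named first in each panel title, by class and library; bars are exact 95% binomial intervals. Ndufa4l2 takes over 94% in pericytes, Cox4i2 around 50% or more in pericytes and Müller glia, and Cox6b2 about 28% in Müller glia, while in smooth muscle the old library is lowest for Ndufa4l2 and Cox4i2.

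Other complex IV members followed the classes in smaller steps. Cox8a, the general isoform of subunit 8, was at 2668, 2638 and 3088 CPM in cones and 970, 1148 and 1136 in pericytes, against 461, 507 and 520 in endothelial cells (log2 differences 2.49 ± 0.10 and 1.13 ± 0.05). Cox5a, the general subunit 5a, was lower in pericytes (124, 137 and 146 CPM) and Müller glia (138, 170 and 143) than in endothelial cells (283, 306 and 300), by 1.12 ± 0.08 and 0.98 ± 0.12 on the log2 scale. Cox7a2l, a supercomplex factor, was likewise lower in both, with log2 differences of -0.73 ± 0.12 and -0.84 ± 0.23. Cox6a1, the general subunit 6a, was lower in Müller glia, with a log2 difference of -0.67 ± 0.06. Cox7a1, the muscle isoform of subunit 7a, had 28.4, 40.9 and 30.003 CPM in pericytes against 7.998, 18.1 and 10.98 in endothelial cells (1.505 ± 0.32), and took 7.14, 10.6 and 6.70% of the Cox7a1 and Cox7a2 UMIs there. Cox6c, which with Cox4i1 and Ndufa4 had the most endothelial UMIs of the complex, was 1.35 ± 0.19 higher in rods.

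Of the 94 nuclear members, 75 had a promoter window in the RefSeq table of GRCm38.p6 (from 250 bases before to 50 after the start), and motifs of factors known to bind such promoters were searched in it on both strands. Members with no entry included Atp5a1, Atp5f1, Atp5mpl, Cox4i1, Cox4i2, Cox6a2, Cox6c, Cox8c, Ndufa2, Ndufa4l2, Ndufaf6, Ndufb1-ps, Ndufb9, Ndufs1, Sdhc, Uqcrb, Uqcrc2 and Uqcrq. CCGGAAG, an ETS motif, was in 19 of the 75 (25.3%), GCGCATGCG, the NRF1 motif, in 10 (13.3%), and AAGATGGCG, the YY1 motif, in 8 (10.7%), and 31 (41.3%) held at least 1 of them. Of all 27025 genes in the table, 9.93, 1.95 and 1.64% held them and 12.7% held any. Of the 9530 genes measured in endothelial cells, 20.7, 4.22 and 3.74% held them and 26.6% held any. No window held overlapping matches of different motifs. A match describes letters and is not a binding site. The windows of genes that set a class apart, and of Cox6b1 as the pair of Cox6b2, are printed 5′ to 3′ on the strand of the gene, with matches in capitals. They are chr7:30626065-30626364 (minus strand) for Cox6b1, chr7:4753045-4753344 (minus) for Cox6b2, chr6:11907401-11907700 (minus) for Ndufa4, chr2:140170396-140170695 (plus) for Ndufaf5 and chr19:7217567-7217866 (minus) for Cox8a.
Cox6b1: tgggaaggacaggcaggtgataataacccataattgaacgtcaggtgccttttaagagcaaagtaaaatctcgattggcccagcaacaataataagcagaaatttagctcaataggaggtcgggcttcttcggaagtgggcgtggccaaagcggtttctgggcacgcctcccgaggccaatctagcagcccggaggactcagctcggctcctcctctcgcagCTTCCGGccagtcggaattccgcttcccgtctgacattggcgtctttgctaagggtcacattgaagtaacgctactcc
Cox6b2: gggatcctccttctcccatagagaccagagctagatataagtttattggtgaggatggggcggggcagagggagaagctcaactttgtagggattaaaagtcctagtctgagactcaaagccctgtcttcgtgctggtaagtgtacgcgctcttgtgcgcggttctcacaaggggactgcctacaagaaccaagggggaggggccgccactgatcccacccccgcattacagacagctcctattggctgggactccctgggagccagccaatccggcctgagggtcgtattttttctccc
Ndufa4: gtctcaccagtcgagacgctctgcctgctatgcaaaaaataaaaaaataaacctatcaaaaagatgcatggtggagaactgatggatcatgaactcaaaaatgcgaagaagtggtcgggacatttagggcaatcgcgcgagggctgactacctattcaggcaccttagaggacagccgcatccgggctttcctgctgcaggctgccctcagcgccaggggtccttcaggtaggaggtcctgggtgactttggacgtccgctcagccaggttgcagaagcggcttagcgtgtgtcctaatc
Ndufaf5: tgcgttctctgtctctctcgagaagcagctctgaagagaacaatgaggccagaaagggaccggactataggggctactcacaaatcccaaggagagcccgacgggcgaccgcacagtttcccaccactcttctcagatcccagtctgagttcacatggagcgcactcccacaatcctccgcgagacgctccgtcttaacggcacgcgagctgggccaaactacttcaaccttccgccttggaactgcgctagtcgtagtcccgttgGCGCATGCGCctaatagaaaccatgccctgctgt
Cox8a: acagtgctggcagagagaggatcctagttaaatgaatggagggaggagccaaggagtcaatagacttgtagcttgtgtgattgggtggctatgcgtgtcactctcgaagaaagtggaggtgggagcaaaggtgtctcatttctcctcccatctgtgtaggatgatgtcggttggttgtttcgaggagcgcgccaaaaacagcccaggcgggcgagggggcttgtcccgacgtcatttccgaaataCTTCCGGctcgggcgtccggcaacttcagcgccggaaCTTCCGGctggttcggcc
The Cox6b1 window held 1 ETS match and that of Cox8a 2, Ndufaf5 held 1 NRF1 site read on both strands, and those of Cox6b2 and Ndufa4 held none of the 3 motifs.

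The study compared ages, and the levels of each class were therefore set against those in the young library. In endothelial cells the nuclear members were 1.06 times as abundant in the old as in the young library (95% counting interval 1.05 to 1.07) and 1.08 times in the adult. The mitochondrial members were 1.01 times (1.00 to 1.02) in the old and 1.10 times in the adult library. The adult level was thus the highest of both sets in the class, but in its larger cluster the old nuclear level, 2.007% (1.99 to 2.02), was above the adult 1.97% (1.96 to 1.99). By cluster the old to young ratio differed: it was 1.09 for nuclear and 1.03 for mitochondrial members in the larger endothelial cluster, and 0.993 and 0.949 in the smaller one, led by Gkn3 and Sema3g. The smaller cluster held 45, 55 and 80 of the endothelial cells. In the endothelial class, Müller glia markers were at 742, 917 and 1168 CPM and rod markers at 60.3, 117 and 145 CPM by age. Free RNA, estimated from rod genes, was 1.18, 1.51 and 2.48% of UMIs, while pericyte markers were lowest in the old library (1992, 2022 and 1261 CPM). The part of these in the endothelial ratios was not tested.

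In the other classes the nuclear ratio of old to young was 1.08 in pericytes, 1.02 in smooth muscle (0.989 to 1.05), 1.06 in Müller glia, 1.13 in rods, 1.21 in cones (1.18 to 1.23) and 1.17 in bipolar cells. It was above 1 in every class, with the largest values in neurons, but in smooth muscle it was below 1 under 4 alternatives, down to 0.895. The bipolar clusters differed, from 1.02 (0.981 to 1.06) in cluster 14 to 1.30 in cluster 15. Free RNA, estimated from endothelial genes, was 3.84, 2.12 and 14.07% of rod UMIs in the libraries by age, and with it subtracted the rod nuclear ratio was 1.14. The mitochondrial ratio went both ways. It was 0.826 in smooth muscle, 0.882 in Müller glia, 0.913 in cones and 0.943 in bipolar cells, and 1.01 in pericytes and 1.04 in rods. In rods and Müller glia the adult library had the highest nuclear level (1.196 and 1.13 times young), and in cones and bipolar cells the old one. In Müller glia, rod markers (486, 1411 and 965 CPM) and estimated free RNA (9.50, 18.3 and 16.5% of UMIs) had the same order over the libraries as the nuclear level, and their part in it was not tested. All classes of an age come from the same library, so these ratios are not independent of each other. The direction of the mitochondrial ratio depended on the limits: it was 0.980 in endothelial cells with a limit of 10% mt- UMIs. With no limit it was 1.07 in Müller glia, 0.924 in pericytes and 0.955 in rods. In smooth muscle, cones and bipolar cells it stayed below 1, at up to 0.995, 0.998 and 0.961 over the alternatives. Pericyte markers in smooth muscle (9301, 8702 and 4715 CPM) were lowest in the old library too, and their part in its ratio was not tested.

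**Figure D4:**
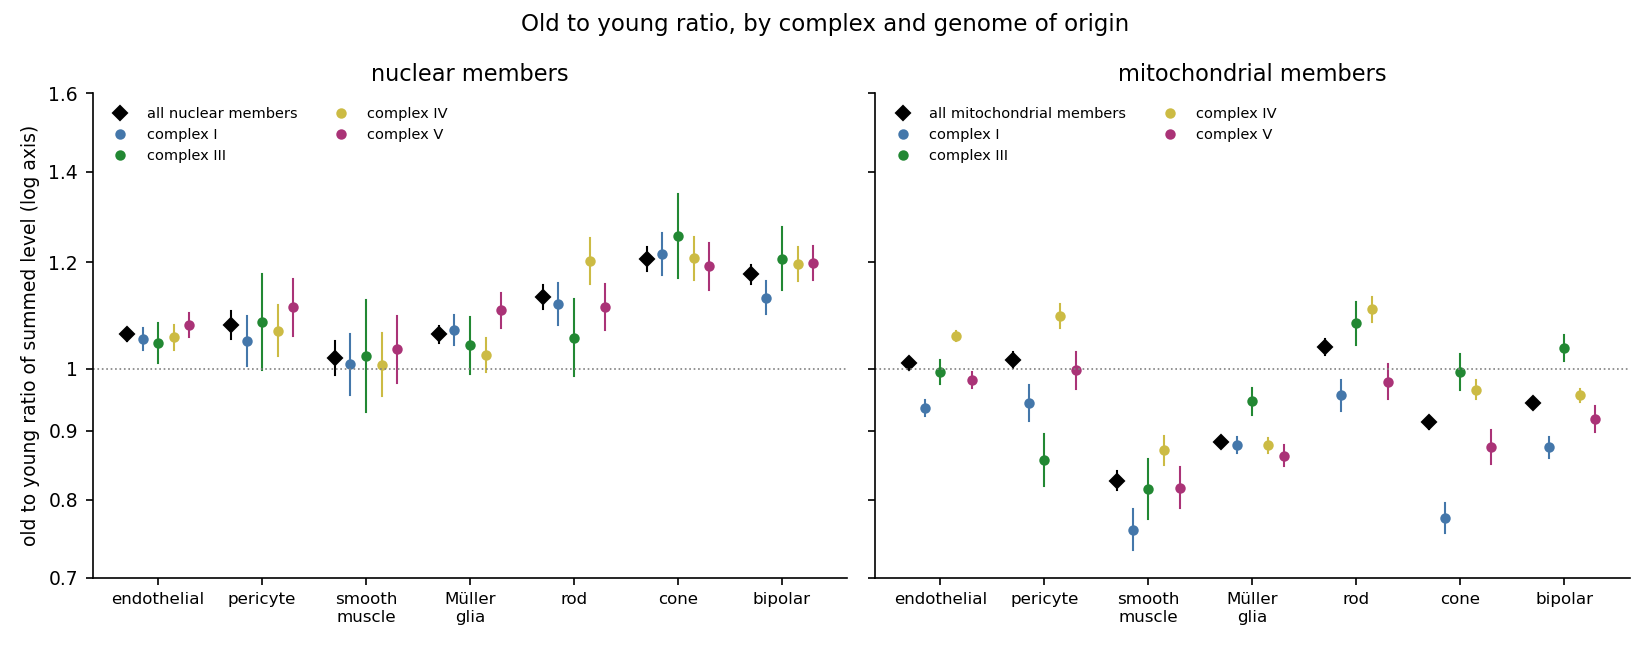
Old to young ratio of summed level by class on a log axis, for nuclear (left) and mitochondrial (right) members, with all members as diamonds and complexes I, III, IV and V as dots; bars are 95% counting intervals and the dotted line marks equality. The nuclear diamonds lie between 1.02 and 1.21, while mitochondrial complex I lies below 1 in all 7 classes and below mitochondrial complex IV in 6.

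A count of members past a 1.2-fold difference was read beside the same count over all genes with 100 or more UMIs in the class. In endothelial cells 6 of 87 nuclear members were past it upward and 2 downward, beside 17.6 and 13.6% of all 8264 genes. For adult against young it was 5 and 0, beside 14.8 and 9.51%. Neither share of members was above that of all genes. The median log2 ratio was 0.10 for the members and 0.02 for all genes, and 73 of 87 members had a ratio above 1.

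In cones and bipolar cells the upward share of members was above that of all genes. In cones 44 of 82 nuclear members were past the fold upward and 0 downward, beside 25.7 and 16.1% of all genes, and in bipolar cells 35 and 1 of 82, beside 21.8 and 17.7%. Their median log2 ratios were 0.27 and 0.23, beside 0.07 and 0.03 over all genes. In rods the counts were 21 and 4 of 83 (background 20.3 and 20.5%), in pericytes 12 and 2 of 79 (26.3 and 14.1%), in Müller glia 8 and 3 of 86 (19.3 and 14.4%), and in smooth muscle 10 and 7 of 75 (28.1 and 16.3%). Among these 4 classes the upward share was above the background in rods, at 21 of 83 against 20.3%. The upward counts moved between alternatives, over 22 to 63 members in cones, 27 to 50 in bipolar cells, 17 to 32 in rods, 6 to 28 in Müller glia, 7 to 15 in pericytes and 4 to 15 in smooth muscle. The highest Müller glia count, 28, came without cells carrying other markers.

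Of the 72 nuclear members counted in all 7 classes, 19 had an old to young ratio above 1 in each of them and 0 had a ratio below 1 in each. Of all 857 genes counted in the 7 classes, 12.6% were above 1 in each and 1.63% below. The classes share libraries, so each gene's 7 ratios are not independent. The 19 included 8 subunits of ATP synthase, among them Atp5b, the catalytic beta subunit (1.04 to 1.31 over classes), Atp5g1 and Atp5g2, together with Cox5b (1.09 to 1.39), Cox8a (1.01 to 1.195) and Ndufb8 (1.11 to 1.27). They also included Ndufs7, a core subunit of complex I (1.04 to 1.4025). Between adult and young, 20 of 72 had a ratio above 1 in each class, beside 12.8% of all genes above and 0.7% below.

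Complex II was where pericytes differed most between ages. Its 4 genes together were 1.404 times as abundant in the old as in the young library (1.19 to 1.66), with Sdhb at 114, 110 and 180 CPM over the libraries by age and Sdhc at 93.7, 128 and 164. The old to young ratios were 1.58 (1.16 to 2.17) for Sdhb and 1.75 (1.25 to 2.46) for Sdhc, which rest on 90 against 80 and 82 against 66 UMIs, while those of Sdha and Sdhd had intervals that included 1. Smooth muscle markers in the pericyte class were at 1747, 3011 and 2502 CPM, and their part in the ratio was not tested. In endothelial cells the ratio of the sum was 1.14 (1.04 to 1.24), with Sdhd at 1.23 (1.01 to 1.51).

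The endothelial members with the largest upward ratios were, beside Sdhd, Cox7a1 at 1.37 (0.818 to 2.34), Ndufaf3 at 1.30 (1.05 to 1.62), Ndufb6 at 1.25 (1.06 to 1.48) and Ndufa10 at 1.25 (1.05 to 1.495). Ndufb6, an accessory subunit, went from 76.0 to 83.6 and 95.3 CPM. The lowest were mt-Nd6 at 0.739, Ndufa4l2 at 0.762 (0.615 to 0.944), mt-Nd3 at 0.785, Ndufs1, the largest core subunit of complex I, at 0.811 (0.613 to 1.07) and Ndufaf7 at 0.861 (0.674 to 1.10). For Cox7a1, Ndufs1 and Ndufaf7 the interval included 1. The ratio of pericyte markers in the endothelial class was below 1 as well, from 1992 to 1261 CPM, and its part in the Ndufa4l2 ratio was not tested. In the smaller endothelial cluster the old to young ratio was 0.912 for Ndufa10, 0.556 for Cox7a1, 0.439 for Ndufa4l2 and 1.88 for Ndufb6.

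The mitochondrial members differed in the balance of their complexes. Mitochondrial complex I had old to young ratios of 0.936 (0.923 to 0.949) in endothelial cells, 0.943 in pericytes, 0.760 in smooth muscle, 0.878 in Müller glia, 0.956 in rods, 0.775 (0.755 to 0.795) in cones and 0.874 in bipolar cells. Mitochondrial complex IV had ratios of 1.06, 1.09, 0.870, 0.878, 1.11, 0.965 and 0.956 in the same order. These directions depended on the cells taken: complex IV was 0.985 in the smaller endothelial cluster, and with classes from own markers and no mt- limit it was 1.10 in smooth muscle, 1.06 in Müller glia and 1.04 in cones. Complex I in Müller glia was then 1.06 as well. The ratio of complex I to complex IV UMIs was lowest in the old library in 6 of 7 classes, at 0.803 to 0.915 of its young value, and at 1.00 in Müller glia. Between adult and young it was 0.977 to 1.04 times.

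The mitochondrial gene with the lowest ratio in every class was mt-Nd6, and mt-Nd3 was also below 1 throughout. mt-Nd6 had 130, 158 and 96.4 CPM in endothelial cells, 121, 114 and 58.6 in Müller glia, and 144, 166 and 64.4 in bipolar cells of the young, adult and old library. In all 7 classes the old library was the lowest. The old to young ratio was 0.448 to 0.739 over classes, with a counting interval below 1 in 6 of them and, in pericytes, an interval of 0.497 to 1.06. Its share of all mitochondrial member UMIs was 0.475 to 0.732 times the young share. Adult to young shares were 0.913 to 1.52 times. The libraries behind these values held few mt-Nd6 UMIs, 25 in old smooth muscle and 351 in old endothelial cells, for example.

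mt-Nd3, a small membrane subunit of complex I (mitochondrial DNA, 9459 to 9806, plus strand), was far better counted, with 5500 UMIs in old endothelial cells. Its level there was 1923, 2079 and 1510 CPM over the libraries by age, and in Müller glia 4474, 4315 and 3387. The old to young ratio was 0.663 to 0.860 over the 7 classes, with an interval below 1 in all of them. mt-Nd2, mt-Nd4l and mt-Atp6 also had ratios below 1 in all 7 classes, the last at 0.815 to 0.993, so that 5 of 13 did, beside 1.63% of all genes. Between adult and young, 2 of 13 were above 1 in all 7 classes and 0 below, beside 12.8 and 0.7% of all genes. These 2 were mt-Nd4l (1.08 to 1.415) and mt-Nd5 (1.0001 to 1.29). mt-Nd4l shares bases with mt-Nd4, mt-Atp6 with mt-Atp8 and mt-Co3, so reads there may be split between them. mt-Co1 went both ways, with 1.12 (1.10 to 1.14) in endothelial cells, 1.29 in pericytes and 1.21 in rods, and 0.877 in Müller glia.

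**Figure D5:**
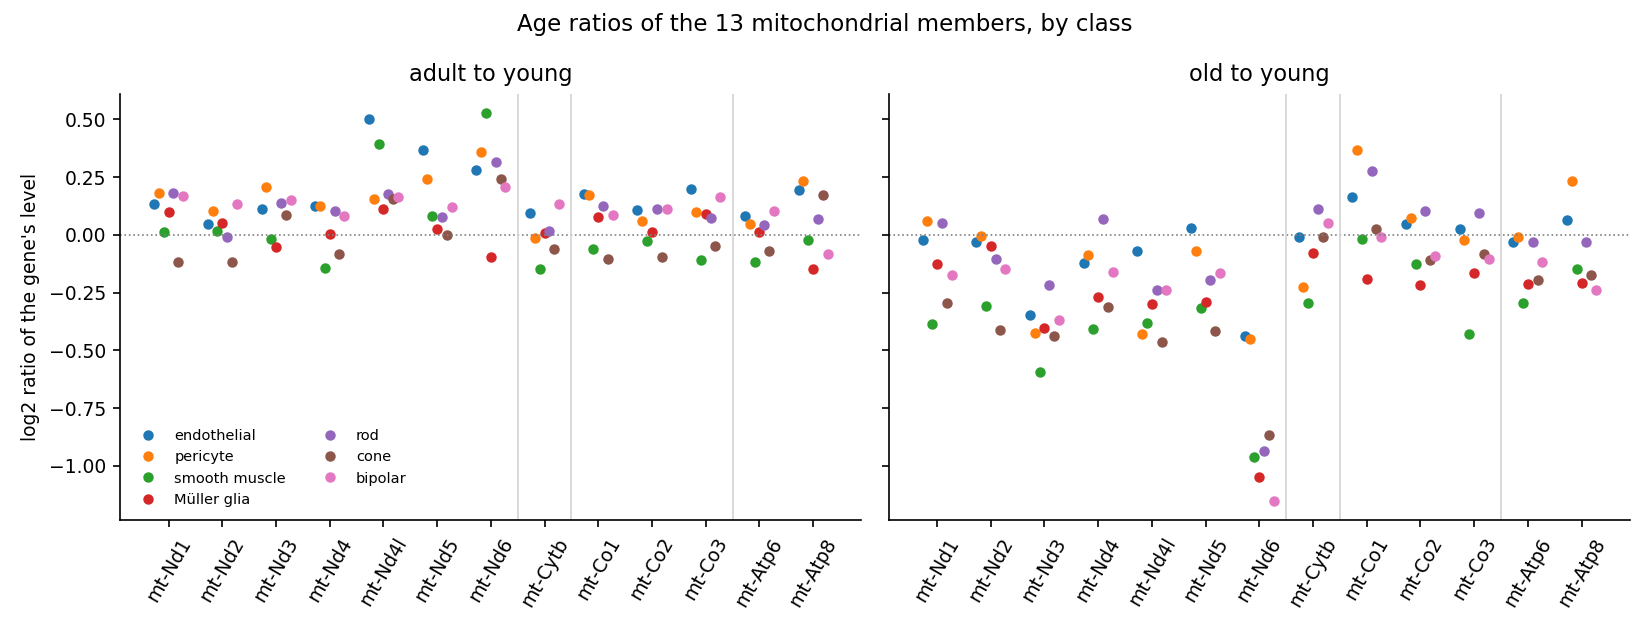
Log2 ratio of each mitochondrial member to its young level, for the adult (left) and old (right) library, in 7 classes; grey lines part complexes I, III, IV and V and the dotted line marks equality. In the old library mt-Nd6 lies lowest in all 7 classes, down to a ratio of 0.448 in bipolar cells, and mt-Nd3 lies below 0 in all 7, while in the adult library mt-Nd6 lies above 0 in every class except Müller glia.

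As counts, 0 of 13 mitochondrial members were past the fold upward and 2 downward in old endothelial cells, 1 and 3 in pericytes, 0 and 10 in smooth muscle, 0 and 5 in Müller glia, 1 and 1 in rods, 0 and 7 in cones and 0 and 2 in bipolar cells. The downward shares of all genes were 13.6, 14.1, 16.3, 14.4, 20.5, 16.1 and 17.7% in the same order. The members' share was above that in pericytes, smooth muscle, Müller glia and cones, near it in endothelial and bipolar cells and below it in rods. The upward gene in pericytes and rods was mt-Co1. The summed mitochondrial to nuclear UMIs were 0.757 to 0.951 of the young ratio in the old library, and were lowest there in every class except rods.

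Other genes around the respiratory chain were taken from lists and counted in the same way between old and young. Of 13 electron carrier and adenine nucleotide transport genes, 2 were past the fold upward in endothelial cells (Etfa, of electron transfer flavoprotein, and Ucp2, an uncoupling protein) and 0 downward, with a median log2 ratio of 0.10. In cones 5 of 11 were upward, with Cycs, the cytochrome c gene, among them, and in bipolar cells 5 of 11, and 0 were downward in either. Of the tricarboxylic acid cycle genes, 1 of 17 was past the fold in endothelial cells (Mdh2, malate dehydrogenase, upward), and 3 upward and 4 downward of 17 in Müller glia. Of the assembly factors of complexes II to V, 5 of 27 were upward and 2 downward in endothelial cells, and of the genes of mitochondrial transcription and biogenesis, 3 of 11 and 2 of 11. Of 5 counted other complex I assembly factors, 1 (Ecsit) was upward. The shares of all genes were 17.6% upward and 13.6% downward in endothelial cells, 25.7 and 21.8% upward in cones and bipolar cells, and 19.3 and 14.4% in Müller glia. With lists of 5 to 27 genes, 1 gene more or less moves a share widely, and nothing is read from the endothelial counts.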

How the data were processed

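Retinal cells of 3 libraries, 1 per age, were sequenced, and the authors aligned the reads to mm10 with Cell Ranger 6.1.2 and deposited filtered matrices of raw UMI counts per gene and barcode. From these, barcodes with 500 to 6000 genes and 1 to 20% mt- UMIs were kept. Doublets (8, 17 and 12) were removed with Scrublet in scanpy 1.11.5, in place of the DoubletFinder calls of the study; this is under 1% of cells, so doublets may remain. Libraries were clustered in Seurat 5.3.0 under R 4.3.3 (2000 features, 30 principal components, resolution 0.5). Clusters were named when at least 3 markers were found in 20% of cells and reached 25% of their highest cluster, and called mixed where 50% of the markers of more than 1 class were met, thresholds set after the clusters were seen. Pericytes and smooth muscle share markers, so the cluster over 50% for both took the name with the larger share. A cluster of 219 cells with 7 of 8 endothelial markers stayed unnamed, because its UMIs were low and no endothelial marker led it. UMIs were summed per class and library and divided by the class total. Because each age had 1 library, no test was run. Counting intervals (95%) came from scipy 1.17.1 and exclude variation between animals and preparations.

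The 107 members include mt-Cytb for the prefix mt-Cyb. Members and lists were chosen with earlier results of these data known. A member was measured at 10 UMIs and counted at 100, with 0.5 added to counts for log2 ratios of single genes. The 58 genes named by rule were all mitochondrial members, the 3 nuclear members of each complex with the most endothelial UMIs, the 5 highest and 5 lowest nuclear members in rods, pericytes and Müller glia against endothelial cells, the 5 highest and 5 lowest for old against young in endothelial cells, the isoform pairs and the 4 Sdh genes. 1 of the named genes is not reported here. Genes named beyond these were chosen after their values were seen. The ratio calculation was tested on simulated data. Alternatives covered the classes, limits, doublets, free RNA, depth, denominators and added counts.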

Additional observations from a re-analysis of the deposited data

Results flagged for a closer look

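The old to young ratio of the summed mitochondrial members lay on both sides of 1 among the classes, and the difference between classes was not tested, since each age had 1 library. It was 1.01 in endothelial cells, 1.01 in pericytes and 1.04 in rods, and 0.826 in smooth muscle, 0.882 in Müller glia, 0.913 in cones and 0.943 in bipolar cells. Within endothelial cells the larger cluster had a ratio of 1.03 and the smaller one 0.949.

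Barcodes above the limit of 20% mt- UMIs were left out of the levels and ratios in the main setting. With the libraries pooled, their share was higher in each of the other 6 classes than the 1.45% of endothelial cells (0.947 to 2.11). In pericytes it was 1.59% with an interval of 0.643 to 3.26 that overlapped. It was 7.55% in smooth muscle, 10.8% in Müller glia, 6.07% in rods, 40.4% in cones and 19.4% in bipolar cells.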

How the results depend on the processing

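No paired analysis was possible because each age had 1 library; class differences were taken within each library. Leaving out 1 library kept the differences of the summed nuclear and mitochondrial members in their direction: for nuclear members 0.2525 to 0.265 in pericytes, 0.182 to 0.217 in Müller glia and 0.882 to 0.958 in rods (log2 against endothelial cells), and for mitochondrial members 0.235 to 0.258, 0.459 to 0.556 and 0.452 to 0.499. Class differences of the sums stayed positive under all other alternatives. The nuclear pericyte difference was 0.191 with classes from each cell's own markers, 0.217 thinned to 2000 UMIs, 0.197 with own markers and no mt- limit, 0.277 without mt- genes in the denominator, 0.197 with size factors and 0.334 without the 20 most abundant other genes. The mitochondrial pericyte difference was 0.148 at a 10% mt- limit, 0.193 thinned, 0.209 without cells carrying other markers, 0.1805 with size factors and 0.318 without the 20 genes. The nuclear Müller glia difference was 0.0606 thinned, 0.337 without cells carrying other markers, 0.327 without cluster 11 and 0.271 without the 20 genes, and the mitochondrial one 0.333 at 10% and 0.690 with no limit. The mitochondrial rod difference was 0.0780 at 10%, 0.393 thinned, 0.681 with no limit and 0.532 without the 20 genes.

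The endothelial mitochondrial old to young ratio turned below 1 at a 10% limit (0.980), with mixed endothelial-pericyte cells included (0.979), in the smaller cluster (0.949) and without the 20 genes (0.970), and was 1.00 with own markers, 1.02 thinned, 1.07 without cells carrying other markers, 1.02 with no limit and 1.03 in the larger cluster. The nuclear ratio was 1.09 in the larger cluster, 0.993 in the smaller and 1.02 without the 20 genes. The median log2 ratio was 0.0693 with size factors within the class. The upward count was 3 with own markers, with or without the limit, and 12 thinned, and the downward count 1 with own markers, at 10% and without cells carrying other markers, and 0 with no limit. The nuclear smooth muscle ratio crossed 1, with 0.938 (own markers), 0.987 (10%), 0.895 (own markers, no limit) and 0.977 (without the 20 genes). Mitochondrial ratios that crossed 1 were pericytes 0.990 (own markers), 0.955 (10%), 0.985 (thinned), 0.924 (no limit) and 0.961 (without the 20 genes), and rods 0.996 (own markers) and 0.955 (no limit). With no limit Müller glia had 1.07 in all, 1.06 for complex I and 1.06 for complex IV, and complex IV was 1.10 in smooth muscle and 1.04 in cones (1.02 without cells carrying other markers). In the smaller cluster complex IV was 0.985, Ndufa10 0.912 and Cox7a1 0.556, and over all alternatives Ndufa4l2 was 0.439 to 0.957 and Ndufb6 1.14 to 1.88. The causes were not tested.

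mt-Nd6 (0.235 to 0.982) and mt-Nd3 (0.527 to 0.993) stayed below 1 in every class under all alternatives run. Free RNA could not be subtracted as planned, since the profile of barcodes under 500 genes was 59.1 to 72.3% mt- UMIs; only those within the mt- limit were used. This, the single or omitted clusters and the denominator without the 20 genes were chosen after seeing the data.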
